A study of Mus musculus with 12 samples.

Results

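The dental epithelium of wild-type (WT) C57BL/6 mouse embryos at E11.5 (E stands for embryonic day) was compared with the dental mesenchyme of the same stage. Each tissue had 3 RNA-seq libraries, so the comparison used 6 of the 12 libraries of the series, and the other 6 are the same tissues at E13.5. All 34347 genes of the deposited table entered, and 20063 had enough counts in the 6 libraries to be tested in both directions. No allele, transgene or treatment separates the groups, which differ only in the tissue layer. Mandibles were dissected at E11.5, incisor and molar regions were both taken, and the layers were parted with dispase. A library is therefore a separated tissue layer rather than a sorted cell type. The labels number the libraries as biological replicates 1 to 3 but also speak of pooled RNA, and the methods give a total of embryos but not how many went into a library. The p-values given here measure the spread between these libraries, part of which may be technical.

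At this stage the oral epithelium of the jaw thickens into the dental lamina above a mesenchyme that comes largely from the cranial neural crest. The epithelium is known as a source of SHH, WNT, FGF and BMP signals, which set up transcription factors such as MSX1, PAX9, BARX1 and LHX6 in the mesenchyme, and the mesenchyme signals back with factors such as FGF10. Epithelial cells hold together through keratins, desmosomes and tight junctions and rest on a basement membrane, whereas mesenchymal cells lie loose in a collagen-rich matrix.

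The 6 libraries held 71579177 to 76492155 estimated counts each. The first principal component, with 61.2% of the variance, separated the tissues, and the second, with 21.2%, set epithelium replicate 3 and mesenchyme replicate 1 apart from the other 4 libraries. These are the libraries whose names carry no number. By their names, epithelium replicate 3 pairs with mesenchyme replicate 1, 2 with 2 and 1 with 3, and a fit with these pairs as a block is given below where it changed a call or moved a count of a list by more than 1.5-fold. The same is done for list counts in a fit of all 12 libraries, which shares 1 estimate of the spread with E13.5. Over genes with high counts, epithelium replicates 1 and 2 differed by 4.07% in the median, and they differed from replicate 3 by 20.5 and 20.9%. Xist, which is transcribed from the inactive X chromosome, and the Y-linked Ddx3y were looked at after the libraries had been seen to fall apart in this way. Xist stood at 8.37, 7.63 and 41.1 FPKM in the epithelium libraries and at 40.1, 21 and 19.9 FPKM in the mesenchyme libraries, replicates 1 to 3 in this order here and below. Ddx3y lay between 3.66 and 4.95 FPKM in all 6, so the libraries standing apart also had the highest Xist.

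A gene is said here to have passed at an adjusted p under 0.05 in edgeR's quasi-likelihood test, and to be called where the change was also at least 2-fold, a log2 fold change of 1. By this rule 736 genes (3.67% of those tested) were called higher in epithelium and 99 (0.493%) higher in mesenchyme, 4.16% in either direction. The counts of genes that passed without the fold threshold were closer, at 952 (4.75%) and 328 (1.63%) or 6.38% together, since 216 of the passing epithelial genes and 229 of the passing mesenchymal genes changed by less than 2-fold. The median called gene differed by 2.35 on the log2 scale on the epithelial side and by 1.33 on the mesenchymal side. Over all genes tested the median log2 fold change, epithelium over mesenchyme throughout, was 0.01. All epithelium libraries lay above all mesenchyme libraries in 12.6% of these genes, and the reverse held in 14.1%. A lack of overlap between the libraries, as given below, is thus common by itself. Counts of list members that passed are to be read below against the shares of 4.75 and 1.63%. Without epithelium replicate 1 or 2 or mesenchyme replicate 2 or 3 the called genes numbered 447 to 487 and 46 to 57, without mesenchyme replicate 1 they were 664 and 87, and without epithelium replicate 3 they were 1062 and 262. The excess on the epithelial side held in each of these. Where a check changes, keeps or ends the call of a named gene, only the adjusted p is meant, without the fold threshold. The same holds where DESeq2 calls members of a list.

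**Figure D1:**
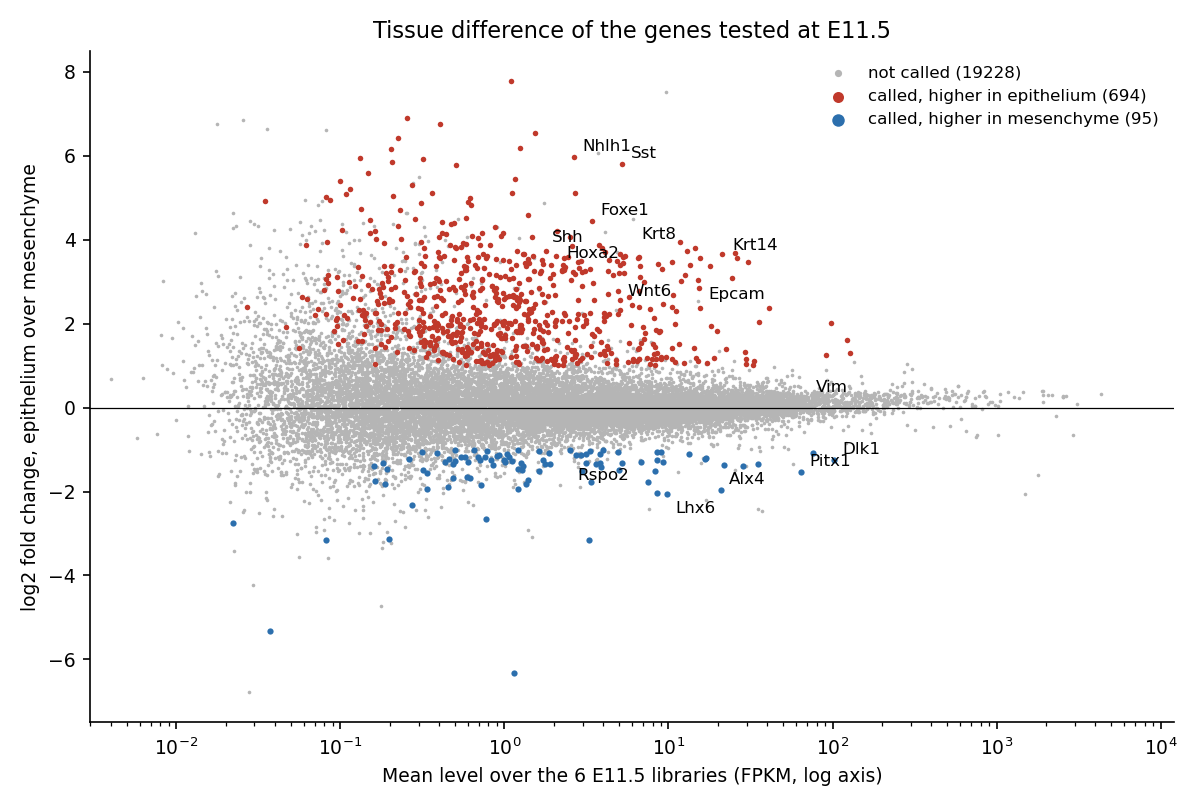
Tissue difference of each gene at E11.5 (vertical axis, log2 fold change of epithelium over mesenchyme) against its mean level over the 6 libraries (horizontal log axis, FPKM). Red points are genes called higher in epithelium, blue points genes called higher in mesenchyme and grey points the rest. The 46 called genes at 0 in every library of a tissue have no finite ratio and are not drawn. The red points cover a wider band of folds than the blue ones, and labels mark genes named in the text such as Krt8 at 3.82 and Lhx6 at -2.05.

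The markers of the layers followed their labels. Krt8, a keratin of simple and embryonic epithelia (mm10 chromosome 15, 101996698 to 102004482), stood at 28.3, 26.7 and 26.5 FPKM in epithelium and at 2.03, 1.9 and 2.04 FPKM in mesenchyme (log2 fold change 3.82 with a standard error of 0.11, adjusted p = 1.74e-05). Epcam, a surface adhesion molecule of epithelia (chromosome 17, 87635979 to 87651106), stood at 26.2, 25.9 and 28.8 against 3.49, 3.36 and 3.31 FPKM (log2 fold change 3.04 with a standard error of 0.12, adjusted p = 2.13e-05). In both genes the lowest epithelium library lay several times above the highest mesenchyme library. The signalling gene Shh (chromosome 5, 28456815 to 28467256) had a log2 fold change of 3.80. On the other side stood the LIM homeobox gene Lhx6 (chromosome 2, 36081953 to 36105408) at 4.51, 4.42 and 2.08 FPKM in epithelium against 13.7, 16.5 and 17.3 FPKM in mesenchyme (log2 fold change -2.05 with a standard error of 0.27, adjusted p = 0.00428), and the homeobox gene Alx4 (chromosome 2, 93642384 to 93681339) at 9.99, 9.73 and 5.16 against 32.4, 33.3 and 34.1 FPKM (log2 fold change -1.96 with a standard error of 0.23, adjusted p = 0.00254). The groups did not overlap in either, and epithelium replicate 3 was the lowest library in both. Of further tissue markers, the basal keratin Krt14 was higher in epithelium (46.9, 48.2 and 23 against 1.84, 3.73 and 4.18 FPKM, log2 fold change 3.66 with a standard error of 0.37, adjusted p = 0.00119). Vim, the intermediate filament of mesenchymal cells, did not pass, at 88.1, 86 and 50.7 FPKM in epithelium and 50.2, 69.9 and 80.1 FPKM in mesenchyme (log2 fold change 0.23, adjusted p = 0.624). Its libraries overlapped.

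**Figure D2:**
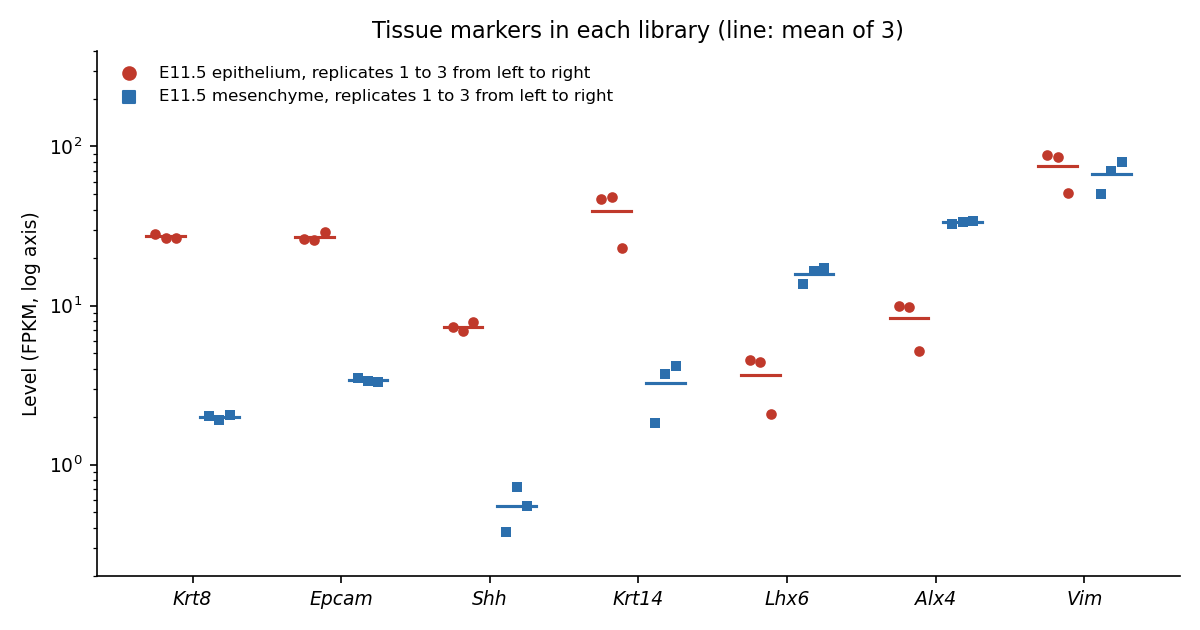
Level of 7 tissue markers in each of the 6 E11.5 libraries (FPKM, log axis), with a line at the mean of 3. Red circles are epithelium and blue squares mesenchyme. Krt8, Epcam, Shh and Krt14 separate by several fold, Lhx6 and Alx4 separate the other way by a smaller factor, and the libraries overlap for Vim.

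Genes of epithelial structure were higher in epithelium almost without exception, in lists drawn up with earlier results of these data known. Of the 10 keratins tested, 9 were higher in epithelium, with a median log2 fold change of 3.49. Krt5, the partner of Krt14 in the basal layer, stood at 62.9, 64.4 and 40.1 FPKM against 4.25, 5.54 and 5.83 FPKM, and Krt15, a keratin of basal progenitors, at 53, 53.9 and 34.9 against 3.0, 3.72 and 4.74 FPKM. Krt18, the partner of Krt8, was at 27.2, 28.6 and 24.5 against 3.66, 3.83 and 4.1 FPKM. All 34 genes of epithelial junctions and surface that were tested passed as higher in epithelium, at a median of 3.25. Among them were the tight junction claudins Cldn4 (22.3, 24 and 26.4 against 2.41, 1.87 and 1.31 FPKM, log2 fold change 3.73 with a standard error of 0.26, adjusted p = 0.000199) and Cldn6 (28.7 ± 0.297 against 2.48 ± 0.478 FPKM, n = 3 and 3) and the desmosome gene Pkp1 (log2 fold change 4.31). The splicing regulator Esrp1, which sets epithelial isoforms of receptors, was at 9.79 ± 1.45 against 0.833 ± 0.0299 FPKM (n = 3 and 3). Cdh1, the adherens junction cadherin of epithelia, was picked after its values were seen and was at 16.1, 16 and 25.3 against 2.08, 1.59 and 1.64 FPKM. Each gene named in this paragraph kept its call whichever single library was left out.

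Promoter windows are shown for 4 genes of the epithelial side and 1 of the mesenchymal side, Cited1, to set the E-box CACCTG beside the genes it occurs in. This hexamer, read on both strands (its reverse complement is CAGGTG), is the sequence that Snail and Zeb repressors are known to bind. The windows run from 250 bases before to 50 bases after an annotated start (RefSeq, GRCm38.p6), and matches are in capitals. Only windows with a match are shown. Cited1 also has windows without one, and those of named epithelial genes such as Krt14 and Wnt6 hold none. They lie at chr15:102004293-102004592 (Krt8, minus strand), chr17:87635729-87636028 (Epcam, plus), chr5:134946885-134947184 (Cldn4, minus), chr4:137277385-137277684 (Wnt4, plus) and chrX:102250727-102251026 (Cited1, minus).
Krt8: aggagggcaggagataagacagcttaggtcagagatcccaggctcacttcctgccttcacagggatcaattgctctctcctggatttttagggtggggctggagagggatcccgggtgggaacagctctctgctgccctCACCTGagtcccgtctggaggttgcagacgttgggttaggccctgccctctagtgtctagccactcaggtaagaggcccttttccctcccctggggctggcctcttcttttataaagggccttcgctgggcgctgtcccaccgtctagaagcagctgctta
Epcam: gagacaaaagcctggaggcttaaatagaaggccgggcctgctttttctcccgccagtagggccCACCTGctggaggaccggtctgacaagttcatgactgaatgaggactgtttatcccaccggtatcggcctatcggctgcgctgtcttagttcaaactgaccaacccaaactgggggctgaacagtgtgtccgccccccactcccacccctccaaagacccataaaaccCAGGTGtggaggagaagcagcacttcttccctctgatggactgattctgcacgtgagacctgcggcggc
Cldn4: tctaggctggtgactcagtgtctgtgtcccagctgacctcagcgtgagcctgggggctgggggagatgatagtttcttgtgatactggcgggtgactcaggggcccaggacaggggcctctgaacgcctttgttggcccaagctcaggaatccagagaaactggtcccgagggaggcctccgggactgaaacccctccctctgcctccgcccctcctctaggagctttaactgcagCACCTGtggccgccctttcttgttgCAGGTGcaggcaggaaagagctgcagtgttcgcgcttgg
Wnt4: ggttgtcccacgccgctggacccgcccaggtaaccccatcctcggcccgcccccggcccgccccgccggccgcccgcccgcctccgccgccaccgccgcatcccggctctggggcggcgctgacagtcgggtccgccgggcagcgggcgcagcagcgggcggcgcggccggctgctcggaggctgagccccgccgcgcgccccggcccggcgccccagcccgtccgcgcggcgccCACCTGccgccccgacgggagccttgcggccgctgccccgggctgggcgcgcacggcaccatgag
Cited1: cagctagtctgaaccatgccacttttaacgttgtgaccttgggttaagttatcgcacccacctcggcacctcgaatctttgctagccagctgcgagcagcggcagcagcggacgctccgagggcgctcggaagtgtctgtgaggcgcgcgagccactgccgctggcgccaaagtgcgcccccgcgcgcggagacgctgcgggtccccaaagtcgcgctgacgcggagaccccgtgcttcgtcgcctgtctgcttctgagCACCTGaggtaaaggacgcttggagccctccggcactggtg
Krt8 has a match that begins 111 bases before its start, Epcam has matches 187 and 19 bases before, Wnt4 has 1 match 15 bases before, Cldn4 has matches 14 bases before and at base 11 after the start, and Cited1 has 1 at base 9 after it. The hexamer occurred in 232 of 664 windows (34.9%) of genes called higher in epithelium, in 10 of 81 windows (12.3%) of genes called higher in mesenchyme and in 3107 of 16548 windows (18.8%) of all genes tested. The letters AACNGGTT, the core of grainyhead-like sites, were in 19 (2.86%), 1 (1.23%) and 314 (1.9%) of the same windows, and the homeodomain core TAATTA was in 26 (3.92%), 3 (3.70%) and 474 (2.86%). The searched motifs do not overlap each other. Only 69.4% of the epithelial and 57.6% of the mesenchymal called genes had a window, under 80%, so a comparison of these shares is void and they are given as a description.

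The basement membrane was split. Of 24 genes, 12 passed on the epithelial side and 2 on the mesenchymal side, at a median log2 fold change of 0.81. Among the epithelial ones were hemidesmosome genes, which anchor keratinocytes. Col17a1 stood at 5.65, 5.47 and 4.61 FPKM against 0.693, 0.723 and 0.766 FPKM (log2 fold change 2.89 with a standard error of 0.12, adjusted p = 2.95e-05), and Itgb4 at 2.31, 2.39 and 1.69 against 0.402, 0.393 and 0.312 FPKM. Collagen IV chains common to all basement membranes did not pass. Col4a1 was at 39.9, 39.3 and 49 FPKM in epithelium and 47.5, 46.3 and 48.2 FPKM in mesenchyme (adjusted p = 0.684), and Col4a2 differed by 0.04 (adjusted p = 0.827). Nid1, which links laminin to collagen IV, had every mesenchyme library above the epithelium libraries but missed the threshold (log2 fold change -0.40, adjusted p = 0.153, and 0.00982 with the library names as a block). The mesenchymal count was 0 without epithelium replicates 1 or 2 or mesenchyme replicates 2 or 3, 1 without mesenchyme replicate 1, 5 without epithelium replicate 3, 4 with the library names as a block and 0 in the fit of all 12 libraries.

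Of 25 markers of mesenchyme, 5 (20%) were higher in mesenchyme, against 1.63% of all genes tested, at a median log2 fold change of -0.36. The list stood at 75.8, 74.1 and 73.9% of its mean mesenchyme level in the epithelium libraries (median over members). The homeobox gene Prrx1 of craniofacial and limb mesenchyme was at 31.9, 30.1 and 31.8 FPKM in epithelium and 58.5, 52.6 and 50.9 FPKM in mesenchyme (log2 fold change -0.74 with a standard error of 0.11, adjusted p = 0.00617), and the matrix gene Postn was at 7.65, 7.48 and 6.93 against 11.46, 12.4 and 12.7 FPKM (log2 fold change -0.68 with a standard error of 0.08, adjusted p = 0.0024). Collagen genes Col3a1 and the cadherin Cdh11 changed by -0.37 and -0.46. Twist1, a bHLH factor of head mesenchyme, had 140.5, 139 and 82.9 FPKM in epithelium against 159, 182 and 201 FPKM in mesenchyme and did not pass (adjusted p = 0.166, and 0.0371 with the library names as a block). RNA of mesenchymal genes was thus abundant in the epithelium libraries, whereas the keratin list summed to 164 to 239 FPKM in epithelium and 16.6 to 22.9 FPKM in mesenchyme. In bulk tissue, fewer cells of a type and less RNA per cell cannot be told apart, and what this RNA contributes to the smaller folds on the mesenchymal side was not tested. The count of mesenchyme markers was 2 without epithelium replicates 1 or 2 or mesenchyme replicates 2 or 3, 13 without epithelium replicate 3, 15 with the library names as a block and 0 in the fit of all 12 libraries. With 1 library left out, the threshold was missed by Col3a1 without epithelium replicates 1 or 2 or mesenchyme replicates 2 or 3 (adjusted p up to 0.191) and Cdh11 without epithelium replicates 1 or 2 or mesenchyme replicates 1, 2 or 3 (adjusted p up to 0.177).

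**Figure D3:**
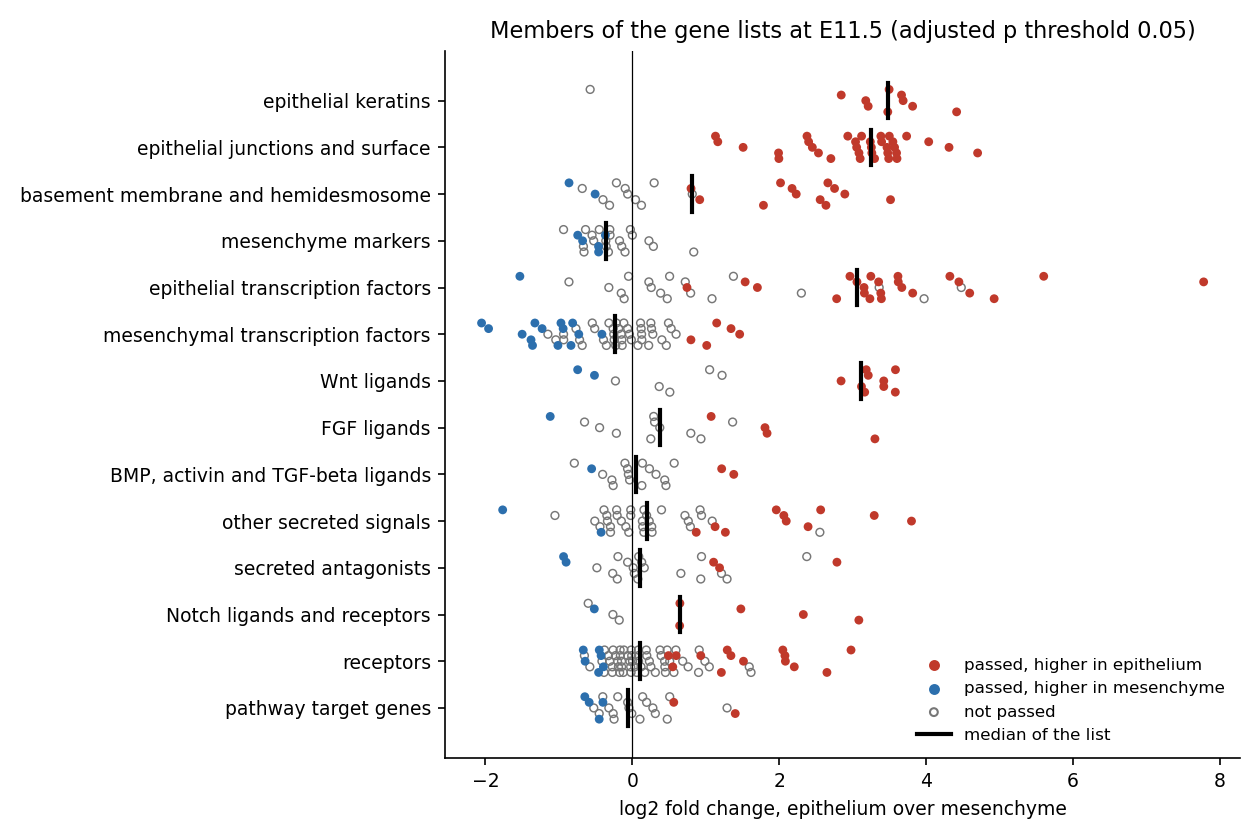
Tissue difference of the members of 14 gene lists (horizontal axis, log2 fold change of epithelium over mesenchyme). Filled points passed at an adjusted p under 0.05, red on the epithelial and blue on the mesenchymal side, open points did not, and bars are list medians over all members tested. Members at 0 in a whole tissue are not drawn. Keratins, junctions, epithelial transcription factors and Wnt ligands have medians of 3.49, 3.25, 3.06 and 3.12, whereas the medians of the other lists lie between -0.36 and 0.81.

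Transcription factors of the epithelium followed. Of 43 tested, 24 were higher in epithelium and 1 in mesenchyme, at a median of 3.06. Foxa1, a forkhead factor of endoderm-derived and other epithelia, stood at 2.81, 2.31 and 2.94 FPKM against 0.0319, 0.178 and 0.135 FPKM. Grhl3, a grainyhead-like regulator of barrier and junction genes, stood at 8.59, 8.95 and 10.8 against 0.733, 0.735 and 0.835 FPKM (log2 fold change 3.67 with a standard error of 0.15, adjusted p = 2.54e-05). Both lay apart from the mesenchyme in all libraries, and so did the zinc finger gene Sp6 of the dental epithelium, at 2.8, 2.28 and 1.51 FPKM against 0, 0.0295 and 0 FPKM (adjusted p = 0.00171). Lower levels, still higher in epithelium, were those of the forkhead gene Foxi2, at 0.263, 0.327 and 0.281 FPKM against 0, 0.0164 and 0 FPKM (adjusted p = 0.0177), and of the ETS factor Ehf, at 0.0784, 0.0737 and 0.0496 against 0, 0 and 0.00617 FPKM (adjusted p = 0.0438). Sp8 was found in epithelium alone, at 0.111, 0.0769 and 0.0687 FPKM, at least 2.95-fold above the floor of 12 counts per library. Dlx3, a distal-less gene active in ectoderm and neural crest, differed less, at 20.8, 21 and 19 against 9.74, 13.9 and 14.2 FPKM (log2 fold change 0.74 with a standard error of 0.13, adjusted p = 0.0132). The mesenchymal count, which rests on Pitx1, was 0 without epithelium replicates 1 or 2 or mesenchyme replicates 1, 2 or 3 and 2 with the library names as a block. The call was lost for Foxi2 without epithelium replicates 1 or 2 or mesenchyme replicate 3 (adjusted p up to 0.076) and Ehf without epithelium replicates 1 or 2 or mesenchyme replicates 1 or 2 (adjusted p up to 0.176). The same held for Sp8 and Dlx3 without epithelium replicates 1 or 2 (adjusted p up to 0.0896 and 0.0823, in that order).

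Further factors were picked after their values were seen because they are standard regulators of this epithelium. Trp63, the master regulator of stratified epithelium, stood at 8.34, 7.98 and 11.4 against 1.11, 0.74 and 0.858 FPKM (log2 fold change 3.39 with a standard error of 0.23, adjusted p = 0.000197). Sox2, a progenitor factor of the dental lamina, was at 13.4, 13.2 and 9.82 against 1.25, 1.11 and 1.24 FPKM. Both were separated by several fold in every library. Pitx1, a paired-type homeobox gene, went the other way although it had been listed as an epithelial factor, at 42, 38.2 and 16.2 FPKM in epithelium and 68.9, 107 and 115 FPKM in mesenchyme (log2 fold change -1.53 with a standard error of 0.33, adjusted p = 0.0369). Pitx1 marks the mandibular arch in both layers, and its libraries did not overlap. Leaving libraries out singly ended the call of Pitx1 without epithelium replicates 1 or 2 or mesenchyme replicates 1, 2 or 3 (adjusted p up to 0.136).

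Among 58 factors of the jaw mesenchyme, 14 were higher in mesenchyme, 5 were higher in epithelium and the median was -0.24. The count for mesenchyme was 7 without mesenchyme replicate 2, 8 without epithelium replicate 2 or mesenchyme replicate 3, 9 without epithelium replicate 1 or mesenchyme replicate 1, 23 without epithelium replicate 3, 24 with the library names as a block and 2 in the fit of all 12 libraries. That for epithelium was 3 without mesenchyme replicates 2 or 3 and 3 in the fit of all 12 libraries. Beside Lhx6 and Alx4 stood Lhx8, the LIM homeobox gene that acts together with Lhx6 in the oral mesenchyme, at 14.7, 13.4 and 7.67 FPKM in epithelium against 29.9, 31.6 and 33.5 FPKM in mesenchyme (log2 fold change -1.36 with a standard error of 0.22, adjusted p = 0.01). The T-box gene Tbx22 of the palate was at 0.47, 0.699 and 0.947 against 2.01, 1.93 and 1.77 FPKM. Barx1, which marks the molar field of the jaw, was the most abundant of these and differed by less than 2-fold, at 96.8, 95.3 and 60.8 FPKM in epithelium and 118, 167 and 186 FPKM in mesenchyme (log2 fold change -0.84, adjusted p = 0.0483). Hand2, a factor of the distal arch, was at 38.9, 39.9 and 22.6 against 56.1, 73.2 and 73 FPKM (adjusted p = 0.0369). Msx1, whose loss arrests teeth at the bud stage, had all mesenchyme libraries above the epithelium, at 43, 62.5 and 66.1 against 34, 33.3 and 18.9 FPKM, but missed the threshold (log2 fold change -0.94, adjusted p = 0.054), and it passed with the library names as a block (adjusted p = 0.00158). Calls lost in fits with 1 library less were those of Tbx22 without epithelium replicate 2 or mesenchyme replicates 1, 2 or 3 (adjusted p up to 0.0947) and Barx1 without epithelium replicates 1 or 2 or mesenchyme replicates 2 or 3 (adjusted p up to 0.177). Further such calls were those of Hand2 without epithelium replicates 1 or 2 or mesenchyme replicates 1, 2 or 3 (adjusted p up to 0.146).

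Members of this list on the epithelial side, other than Emx2, were picked after their values were seen. Emx2, a homeobox gene of forebrain and urogenital tissue, was at 5.94, 6.62 and 5.87 FPKM against 1.05, 3.23 and 2.75 FPKM. Foxc1, a forkhead gene of head mesenchyme, was at 5.16, 4.78 and 7.25 FPKM in epithelium and 2.13, 2.47 and 2.43 FPKM in mesenchyme (log2 fold change 1.34 with a standard error of 0.17, adjusted p = 0.00376). Meis1 and Meis2, TALE homeobox partners of Hox proteins, and Ebf1 had log2 fold changes of 1.15, 0.80 and 1.01. These genes were higher in the layer where the list's name would not place them. Of related chromatin and co-factor genes, Cited1, a co-activator without a DNA-binding domain, was higher in mesenchyme (15.9, 17.1 and 13.1 against 37.4, 42.3 and 45.6 FPKM, log2 fold change -1.39 with a standard error of 0.11, adjusted p = 0.000451), and the Groucho-type co-repressor Tle2 likewise (2.79, 2.71 and 2.14 against 5.12, 8.25 and 8.83 FPKM). Among the largest mesenchymal changes stood also the antisense genes Tbx3os1 and Hand2os1, with -1.77 and -1.41. The counting is not stated to use strand, so their reads cannot be told apart from those of overlapping genes. Among the genes named, the threshold was missed by Emx2 without epithelium replicates 1 or 2 or mesenchyme replicates 2 or 3 (adjusted p up to 0.137) and Meis2 without mesenchyme replicates 2 or 3 (adjusted p up to 0.0925).

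Ligands of the Wnt family were mostly epithelial, 10 of 17 passing as higher there and 2 in mesenchyme, at a median log2 fold change of 3.12. Wnt6, the most abundant, stood at 25.1, 23.5 and 19.6 FPKM against 2.66, 2.25 and 2.96 FPKM (log2 fold change 3.16 with a standard error of 0.15, adjusted p = 4.49e-05). Wnt7b, which marks oral ectoderm outside the tooth field, was at 17.6, 17.8 and 11.9 against 1.61, 1.43 and 1.5 FPKM, and Wnt4 was at 13.4, 14.1 and 9.02 against 0.89, 1.12 and 1.15 FPKM (log2 fold change 3.58 with a standard error of 0.19, adjusted p = 6.57e-05). The groups were separated in every one of these. Wnt9b, a ligand of the facial ectoderm, was at 8.54, 8.56 and 9.98 against 1.12, 0.946 and 0.941 FPKM. Wnt10b, a ligand of the dental placode, was at 3.36, 3.57 and 2.48 against 0.33, 0.355 and 0.209 FPKM, and Wnt3a was at 1.21, 1.08 and 0.995 against 0.015, 0.145 and 0.126 FPKM. Wnt1 was read in epithelium alone, at no more than 0.135 FPKM and at least 1.78-fold above the floor of 12 counts (adjusted p = 0.0322, and 0.0781 with the library names as a block). Wnt5a, a ligand of the non-canonical pathway, was higher in mesenchyme, at 8.38, 8.43 and 6.62 FPKM in epithelium and 10.4, 12.5 and 11.8 FPKM in mesenchyme (log2 fold change -0.52 with a standard error of 0.11, adjusted p = 0.0379). Its relative Wnt5b did not pass (adjusted p = 0.519). Of the R-spondins, which amplify Wnt signals, Rspo2 was higher in mesenchyme at 2.96, 3.31 and 3.76 against 12.3, 11.2 and 11.8 FPKM (log2 fold change -1.77 with a standard error of 0.13, adjusted p = 0.000275), while Rspo3 was at 2.62 ± 0.456 against 3.15 ± 0.687 FPKM (n = 3 and 3, adjusted p = 0.607). Removing single libraries ended the call of Wnt3a without epithelium replicate 1 or mesenchyme replicate 3 (adjusted p up to 0.0549) and Wnt1 and Wnt5a without epithelium replicates 1 or 2 or mesenchyme replicates 1, 2 or 3 (adjusted p up to 0.157 and 0.173, in that order). The list's count for mesenchyme was 0 without epithelium replicates 1 or 2 or mesenchyme replicates 1, 2 or 3 and 0 in the fit of all 12 libraries.

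The listed genes of the FGF family were divided, with 4 of 15 higher in epithelium and 1 in mesenchyme (median 0.37). Fgf8, the ligand of the oral ectoderm that patterns the jaw, stood at 7.03, 6.26 and 4.73 FPKM against 0.472, 0.343 and 1.06 FPKM (log2 fold change 3.30 with a standard error of 0.40, adjusted p = 0.00306), and Fgf9, which follows it in the dental epithelium, stood at 2.32, 2.17 and 1.21 against 0.41, 0.538 and 0.747 FPKM (log2 fold change 1.81 with a standard error of 0.29, adjusted p = 0.0111). Fgf10, the mesenchymal ligand of FGFR2, was the reverse, at 1.69, 1.59 and 2.15 FPKM in epithelium and 4.18, 4.01 and 4.02 FPKM in mesenchyme (log2 fold change -1.12 with a standard error of 0.16, adjusted p = 0.00567). Every library of one tissue lay above every library of the other in these 3 genes. Fgf5 and Fgf1 were higher in epithelium at low levels, of 1.01 ± 0.14 and 0.144 ± 0.0311 FPKM (n = 3 each, log2 fold changes 1.07 and 1.83). The adjusted p of Fgf1 was 0.042, and 0.0507 with the library names as a block. Fgf13 and Fgf18 did not pass (adjusted p = 0.461 and 0.837). The epithelial count was 1 without epithelium replicate 1 or mesenchyme replicate 2, 2 without epithelium replicate 2 or mesenchyme replicates 1 or 3 and 7 without epithelium replicate 3. The mesenchymal one was 2 without epithelium replicate 3 and 0 in the fit of all 12 libraries. With 1 library left out, the threshold was missed by Fgf9 without epithelium replicate 1 or mesenchyme replicate 2 (adjusted p up to 0.0665) and Fgf5 without epithelium replicates 1 or 2 or mesenchyme replicates 1, 2 or 3 (adjusted p up to 0.191). So it was for Fgf1 without epithelium replicates 1, 2 or 3 or mesenchyme replicates 1, 2 or 3 (adjusted p up to 0.157).

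A list of TGF-beta superfamily ligands also held the protease gene Bmp1. Of its 18 genes tested, 2 (11.1%) were higher in epithelium and 1 (5.56%) in mesenchyme, at a median of 0.05. The shares of all genes tested were 4.75 and 1.63%. Bmp7 was higher in epithelium at 12.3, 12.9 and 12.1 FPKM against 4.43, 5.92 and 6.4 FPKM (log2 fold change 1.22 with a standard error of 0.12, adjusted p = 0.00104). Inhbb, which encodes an activin subunit, was also higher there, at 0.39, 0.435 and 0.388 against 0.123, 0.223 and 0.135 FPKM. Bmp1, in spite of its name a protease that processes procollagen, was the gene higher in mesenchyme, at 12.6, 13.4 and 12.6 against 16.6, 20.2 and 22.2 FPKM. No ligand of the list passed on that side in this fit. Bmp4, the signal that is known to pass from epithelium to mesenchyme around this stage, was at 11.6, 10.3 and 8.26 FPKM in epithelium and 9.03, 13.7 and 15 FPKM in mesenchyme. Its libraries overlapped and it did not pass (log2 fold change -0.26, adjusted p = 0.486). The epithelial count was 1 without epithelium replicates 1 or 2 or mesenchyme replicates 1 or 3. That for mesenchyme was 0 without epithelium replicate 1 or mesenchyme replicates 2 or 3, 2 without epithelium replicate 3, 3 with the library names as a block and 0 in the fit of all 12 libraries. The call was lost for Inhbb without epithelium replicates 1 or 2 or mesenchyme replicates 1 or 3 (adjusted p up to 0.156) and Bmp1 without epithelium replicate 1 or mesenchyme replicates 2 or 3 (adjusted p up to 0.0708).

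Of 43 other secreted signals, 10 were higher in epithelium and 2 in mesenchyme (median 0.19). Pdgfa, the ligand of a receptor carried by neural crest mesenchyme, stood at 18.7, 19.6 and 14.4 FPKM against 2.87, 3.75 and 3.8 FPKM (log2 fold change 2.39 with a standard error of 0.15, adjusted p = 0.00012), and Pdgfc at 21.9, 23.2 and 31.6 against 17, 13.2 and 13.1 FPKM. The chemokine Cxcl14 was the most abundant of the epithelial ones, at 147, 144 and 89.5 FPKM in epithelium and 37.7, 60.7 and 66.8 FPKM in mesenchyme (log2 fold change 1.27 with a standard error of 0.23, adjusted p = 0.0177). Both neurotrophic ligands of the GDNF family that the rule named were higher in epithelium, Nrtn at 5.35, 5.68 and 4.11 against 0.881, 1.53 and 1.26 FPKM and Gdnf at 0.88, 0.938 and 0.975 against 0.131, 0.137 and 0.221 FPKM. The axon guidance semaphorins Sema3d and Sema3c were higher in epithelium (log2 fold changes 3.29 and 2.06), and epithelium replicate 3 was the highest library in both. Igf2, the fetal growth factor, was higher in mesenchyme, at 442, 430.1 and 427 FPKM in epithelium and 624, 585 and 592 FPKM in mesenchyme (log2 fold change -0.43 with a standard error of 0.08, adjusted p = 0.0202). The heparin-binding factor Mdk was of like abundance and did not pass (adjusted p = 0.282). Leaving libraries out singly ended the call of Pdgfc without epithelium replicates 1 or 2 or mesenchyme replicates 2 or 3 (adjusted p up to 0.167) and Cxcl14 and Igf2 without epithelium replicates 1 or 2 or mesenchyme replicate 2 (adjusted p up to 0.0813 and 0.0936, in that order). The same held for Sema3c without mesenchyme replicates 2 or 3 (adjusted p up to 0.0983). The mesenchymal count was 1 without epithelium replicates 1 or 2 or mesenchyme replicate 2, 5 without epithelium replicate 3, 4 with the library names as a block and 0 in the fit of all 12 libraries.

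A list of secreted antagonists, which also held Kremen receptors, passed on both sides. Of 22 genes, 3 (13.6%) were on the epithelial and 2 (9.09%) on the mesenchymal side (median 0.11). Over all genes tested the shares were 4.75 and 1.63%. Kremen2, a membrane receptor for the Wnt antagonist DKK1, was at 13.8, 12 and 8.66 FPKM in epithelium against 1.19, 1.75 and 2.29 FPKM in mesenchyme (log2 fold change 2.78 with a standard error of 0.25, adjusted p = 0.000688), while Dkk1 itself was higher in mesenchyme at 2.93, 2.61 and 1.83 against 4.9, 4.52 and 5.18 FPKM (log2 fold change -0.94 with a standard error of 0.19, adjusted p = 0.0301). The secreted Wnt-binding protein Frzb was on the side of Dkk1, at 18, 16.5 and 20.9 against 37.6, 33.9 and 35.4 FPKM (log2 fold change -0.90 with a standard error of 0.12, adjusted p = 0.00551). Sostdc1, an inhibitor of Wnt and BMP signals in teeth, was higher in epithelium at 21.6, 22 and 17.6 against 8.26, 9.83 and 11.46 FPKM, and the BMP antagonist Grem1 was at 2.13, 2.13 and 2.76 against 0.883, 1.26 and 1.06 FPKM. Fstl1, Sfrp1 and Sfrp2, the most abundant of the antagonists on neither side, did not pass (adjusted p = 0.686, 0.708 and 0.941). Calls lost in fits with 1 library less were those of Dkk1 without epithelium replicate 2 or mesenchyme replicates 1, 2 or 3 (adjusted p up to 0.11) and Grem1 without mesenchyme replicate 3 (adjusted p up to 0.0574). The count of antagonists for mesenchyme was 1 without epithelium replicate 2 or mesenchyme replicates 1, 2 or 3 and 0 in the fit of all 12 libraries, and the epithelial count was 5 with the library names as a block.

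In the Notch group 5 of 9 genes passed on the epithelial side and 1 on the other (median 0.64). The ligand Jag2 stood at 8.95, 8.69 and 7.52 FPKM against 1.26, 1.91 and 2.04 FPKM (log2 fold change 2.33 with a standard error of 0.16, adjusted p = 0.000197), and the ligand Dll1 at 1.97, 2.09 and 1.83 against 0.631, 0.808 and 0.749 FPKM (log2 fold change 1.48 with a standard error of 0.16, adjusted p = 0.00174). Dll3, a ligand-like protein of neurogenesis, was at 0.81, 0.826 and 0.439 against 0.165, 0.0524 and 0.0226 FPKM, with its lowest epithelium value in replicate 3. The receptor Notch1 and the ligand Jag1 differed by less than 2-fold (0.64 and 0.65). Notch4, an endothelial receptor, was higher in mesenchyme (log2 fold change -0.52, adjusted p = 0.0479). Notch3, the most abundant receptor of the group at 16.3, 16.7 and 22.1 and 21.3, 21.7 and 21.6 FPKM, did not pass, nor did Notch2 (adjusted p = 0.523 and 0.439, the latter 0.0353 with the library names as a block). The epithelial count was 2 without epithelium replicate 1 or mesenchyme replicates 2 or 3, 3 without epithelium replicate 2 and 3 in the fit of all 12 libraries. The mesenchymal count was 0 without epithelium replicates 1 or 2 or mesenchyme replicates 1, 2 or 3, 2 without epithelium replicate 3, 2 with the library names as a block and 0 in the fit of all 12 libraries. Among the genes named, the threshold was missed by Dll3 without epithelium replicates 1 or 2 or mesenchyme replicates 2 or 3 (adjusted p up to 0.158) and Notch1 without epithelium replicate 1 or mesenchyme replicates 2 or 3 (adjusted p up to 0.126). Further such calls were those of Jag1 and Notch4 without epithelium replicates 1 or 2 or mesenchyme replicates 1, 2 or 3 (adjusted p up to 0.158 and 0.189, in that order).

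Receptors of these and other pathways passed in both layers. Of 76 tested, 14 were higher in epithelium and 6 in mesenchyme, at a median of 0.10. Fgfr2, whose epithelial isoform binds FGF10, was at 12.5, 11.9 and 15.4 FPKM in epithelium and 5.63, 5.86 and 6.33 FPKM in mesenchyme (log2 fold change 1.21 with a standard error of 0.12, adjusted p = 0.00104). Fgfr1, the main receptor of mesenchyme, was at 20.5, 20.6 and 19.6 against 25.2, 28.8 and 30.6 FPKM (log2 fold change -0.43 with a standard error of 0.07, adjusted p = 0.014). The gene-level values do not tell isoforms apart. Fzd6, a Frizzled receptor of planar polarity, was at 3.86, 4.4 and 6.63 against 1.22, 1.0 and 1.11 FPKM (log2 fold change 2.20 with a standard error of 0.23, adjusted p = 0.00153), and Edar, the ectodysplasin receptor of placodes, at 0.472, 0.609 and 0.899 against 0.122, 0.102 and 0.0251 FPKM. Lgr6, a receptor of R-spondins, was at 0.868, 0.671 and 0.738 against 0.18, 0.136 and 0.239 FPKM. Epithelium replicate 3 had the highest level of the epithelium libraries in Fzd6 and Edar. The most abundant receptors, Fzd2, Gas1 and Smo, did not pass, and Smo, the transducer of hedgehog signals, lay at 39.8, 39.6 and 39.3 and 37.8, 40.2 and 45 FPKM (log2 fold change 0.00, adjusted p = 0.992). The epithelial count was 7 without mesenchyme replicate 2, 8 without epithelium replicate 2 or mesenchyme replicate 3, 9 without epithelium replicate 1, 23 without epithelium replicate 3 and 24 with the library names as a block. That for mesenchyme was 0 without epithelium replicates 1 or 2 or mesenchyme replicates 2 or 3, 2 without mesenchyme replicate 1, 15 without epithelium replicate 3 and 0 in the fit of all 12 libraries. Removing single libraries ended the call of Fgfr1 without epithelium replicates 1 or 2 or mesenchyme replicates 2 or 3 (adjusted p up to 0.0942) and Edar without epithelium replicate 2 or mesenchyme replicate 2 (adjusted p up to 0.0952).

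Placed side by side, 30 ligand and receptor pairs covered most combinations. A ligand higher in epithelium met a receptor higher in mesenchyme in 2 pairs, Fgf8 and Fgf9 with Fgfr1, and a ligand higher in mesenchyme met a receptor higher in epithelium in 1, Fgf10 with Fgfr2. In 2 pairs both genes were higher in epithelium, Jag2 with Notch1 and Gdnf with Gfra1 (log2 fold change 0.60), and in 1 both were higher in mesenchyme, Wnt5a with Ror2 (-0.45). In 5 pairs only the ligand passed, as epithelial. These were Shh with Ptch1, Wnt4 with Fzd1, Pdgfa and Pdgfc with Pdgfra, and Bmp7 with Bmpr1b. Ptch1, which binds SHH and is also induced by it, stood at 9.46, 9.3 and 17.5 FPKM in epithelium and 10.7, 9.72 and 9.77 FPKM in mesenchyme, and its high library was epithelium replicate 3 (adjusted p = 0.547). In 10 pairs only the receptor passed, 7 times in epithelium and 3 times in mesenchyme. Edn1, an epithelial signal that patterns the jaw, had 0.384, 0.516 and 0.665 FPKM in epithelium and 0.161, 0.262 and 0.435 FPKM in mesenchyme (adjusted p = 0.262), and its receptor Ednra was higher in mesenchyme (log2 fold change -0.67 with a standard error of 0.15, adjusted p = 0.0427). The remaining 9 pairs had neither gene past the threshold. A pair here is a textbook pairing of genes, and contact between the proteins was not measured. With 1 library left out, the threshold was missed by Gfra1, Ror2 and Ednra without epithelium replicates 1 or 2 or mesenchyme replicates 1, 2 or 3 (adjusted p up to 0.156, 0.158 and 0.16, in that order).

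**Figure D4:**
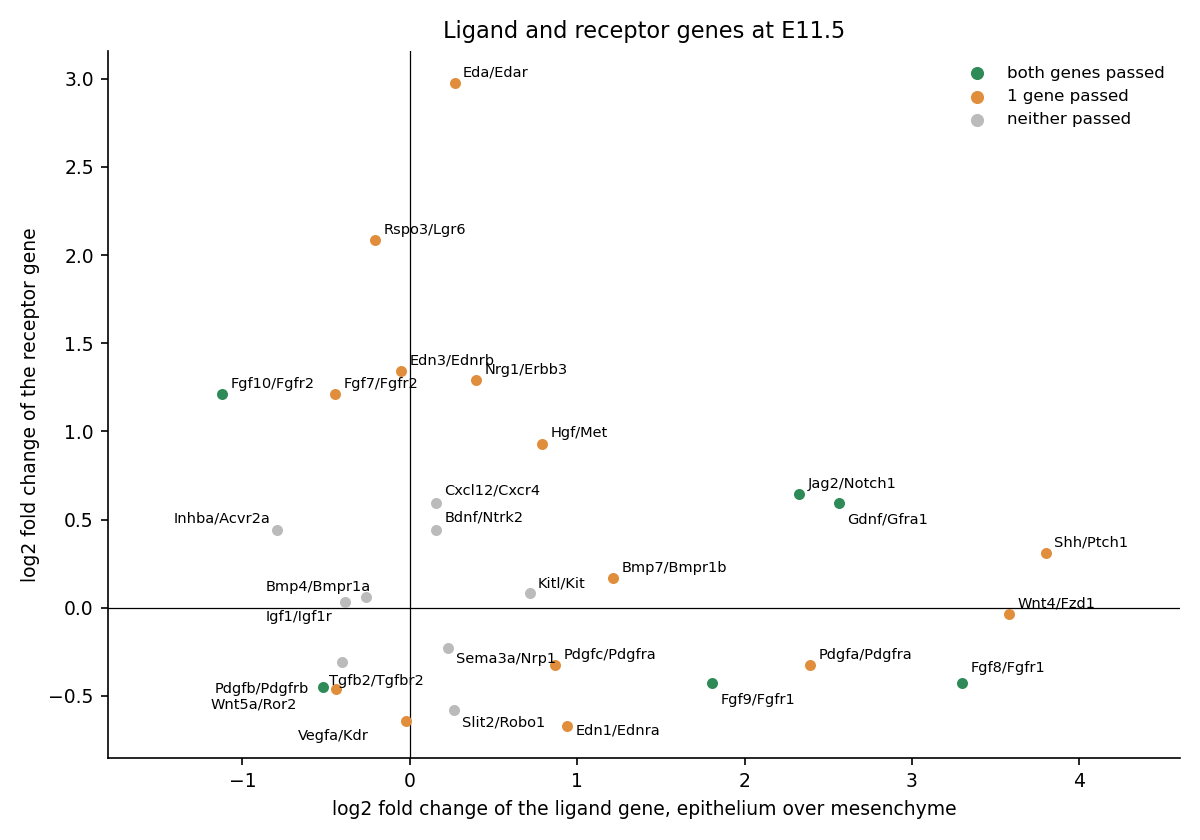
Log2 fold change of the ligand gene (horizontal axis) and of its receptor gene (vertical axis), epithelium over mesenchyme, for 29 of the 30 ligand and receptor pairs. Green points have both genes past an adjusted p of 0.05, orange points 1 and grey points neither. Fgf8 and Fgf9 with Fgfr1 are the only green points to the lower right, Fgf10 with Fgfr2 the only one to the upper left.

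Of 24 direct target genes of these pathways, 2 (8.33%) were higher in epithelium and 4 (16.7%) in mesenchyme, at a median of -0.06. Over all genes tested the shares were 4.75 and 1.63%. The FGF targets Dusp6 and Etv4 were higher in mesenchyme, at 18.9, 17.4 and 18.4 against 23, 27 and 27.6 FPKM and 10.0, 10.6 and 7.49 against 14.1, 14.5 and 15.2 FPKM. Spry4, another FGF target, was also on that side (log2 fold change -0.65), whereas its relative Spry2 was higher in epithelium (0.56). Nkd2, an inhibitor induced by Wnt, was at 7.48 ± 0.284 against 10.2 ± 0.402 FPKM (n = 3 and 3, log2 fold change -0.40), and Heyl, a Notch target, was higher in epithelium (1.40). The BMP targets Id1, Id2 and Id3 did not pass (adjusted p = 0.914, 0.142 and 0.594). The epithelial count was 0 without epithelium replicates 1 or 2 or mesenchyme replicates 2 or 3, 1 without mesenchyme replicate 1 and 4 with the library names as a block. The mesenchymal one was 0 without epithelium replicates 1 or 2 or mesenchyme replicates 2 or 3, 1 without mesenchyme replicate 1 and 2 in the fit of all 12 libraries. The call was lost for Dusp6 and Spry2 without epithelium replicates 1 or 2 or mesenchyme replicates 2 or 3 (adjusted p up to 0.125 and 0.11, in that order) and Etv4, Spry4, Nkd2 and Heyl without epithelium replicates 1 or 2 or mesenchyme replicates 1, 2 or 3 (adjusted p up to 0.153, 0.11, 0.156 and 0.149, in that order).

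Genes of neurons stood among the largest epithelial changes. Of 15 neuron markers, 6 passed, all higher in epithelium, and of 21 markers of sensory neurons and cranial placodes 11 did (medians 2.38 and 2.96). Tubb3, a neuronal tubulin, stood at 88.3, 89.5 and 27.7 FPKM in epithelium and 14.6, 12.5 and 13.6 FPKM in mesenchyme (log2 fold change 2.38 with a standard error of 0.40, adjusted p = 0.0133). Nefm, a neurofilament subunit, stood at 28, 28.7 and 7.13 against 3.3, 2.47 and 2.24 FPKM, and the growth cone protein Stmn2 at 10.0, 10.1 and 2.64 against 1.01, 0.41 and 0.333 FPKM. In all of them epithelium replicate 3 had well under the level of replicates 1 and 2, though still above the mesenchyme. The proneural factor Neurog1, which starts sensory neurons from placodes, was at 1.2, 1.01 and 0.198 FPKM against 0, 0 and 0.0184 FPKM (adjusted p = 0.0127). The sensory homeobox factors Pou4f1 and Tlx3 were at 3.3, 2.81 and 0.685 and 4.81, 3.87 and 0.44 FPKM in epithelium and at no more than 0.094 FPKM in mesenchyme. Sst, which encodes the peptide somatostatin, was at 12, 12.3 and 6.51 FPKM against 0.296, 0 and 0.244 FPKM. Ppp1r17, known from Purkinje cells, was at 7.24, 7.0 and 1.41 against 0.388, 0.0178 and 0.0231 FPKM (adjusted p = 0.0364, and 0.0512 with the library names as a block). The neuron list had a median of 652, 661 and 267% of its mesenchyme mean in the epithelium libraries, and the sensory list 1259, 1272 and 339%. Dll3 and Neurog1 share neurogenic placodes as a known site, and the part of such cells in the epithelial calls was not tested. The count of neuron markers was 0 without mesenchyme replicate 3, 1 without mesenchyme replicate 2, 10 without mesenchyme replicate 1 and 14 without epithelium replicate 3. That of sensory markers was 4 without mesenchyme replicate 2, 5 without epithelium replicate 1, 6 without mesenchyme replicate 3, 7 without epithelium replicate 2 and 17 without epithelium replicate 3. Leaving libraries out singly ended the call of Tubb3, Nefm, Stmn2 and Tlx3 without mesenchyme replicates 2 or 3 (adjusted p up to 0.0783, 0.0728, 0.0829 and 0.0774, in that order) and Neurog1 without epithelium replicate 1 or mesenchyme replicate 2 (adjusted p up to 0.0633). So it was for Ppp1r17 without epithelium replicates 1 or 2 or mesenchyme replicates 2 or 3 (adjusted p up to 0.122).

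Markers of central nervous system progenitors, glia and other tissues were also present. Of 13 progenitor markers 4 were higher in epithelium (median 1.82), among them the eye and forebrain factor Lhx2 at 1.41, 1.16 and 2.09 FPKM against 0.401, 0.315 and 0.102 FPKM and Sox3 at 0.927, 0.804 and 0.366 against 0.137, 0.0144 and 0.0439 FPKM. Of 10 glial markers 3 were, and Fabp7, a lipid carrier of radial glia and Schwann precursors, stood at 30.8, 31.3 and 11.9 FPKM against 3.39, 2.12 and 1.63 FPKM (log2 fold change 3.39 with a standard error of 0.45, adjusted p = 0.00441). Sox10, the defining factor of neural crest glia, was at 9.07, 7.89 and 2.22 FPKM and 1.03, 2.79 and 2.77 FPKM and did not pass (adjusted p = 0.142, and 0.00294 with the library names as a block). Among single genes, Ttr, the thyroid hormone carrier of choroid plexus, liver and yolk sac, had 346, 1060 and 251 counts in epithelium and 0 in every mesenchyme library, at least 47-fold above the floor of 12 counts and at least 25.3-fold without epithelium replicate 2. The liver and yolk sac list, added after the values were seen, had 0 of 7 members past edgeR's threshold (0 higher in epithelium and 0 in mesenchyme at an unadjusted p under 0.05, 0 and 0 in DESeq2). A list of choroid plexus and roof plate genes had 3 of 10 members higher in epithelium, namely Ttr, Wnt1 and the chloride channel gene Clic6 (1.05, 1.1 and 1.25 against 0.28, 0.308 and 0.323 FPKM). That count was 1 in the fit of all 12 libraries. The list was drawn up after Ttr had been seen, so the place of Ttr in the count was fixed in advance. Wnt1 lay near the floor, at least 1.78-fold above 12 counts. The source of these transcripts was not tested. The count of progenitor markers was 0 without epithelium replicates 1 or 2 or mesenchyme replicate 2, 1 without mesenchyme replicate 3, 8 without mesenchyme replicate 1 and 1 in the fit of all 12 libraries. That of glial markers was 5 without epithelium replicate 3 and 5 with the library names as a block. Calls lost in fits with 1 library less were those of Lhx2 without epithelium replicates 1 or 2 or mesenchyme replicate 2 (adjusted p up to 0.112) and Sox3 without epithelium replicates 1 or 2 or mesenchyme replicates 2 or 3 (adjusted p up to 0.149).

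**Figure D5:**
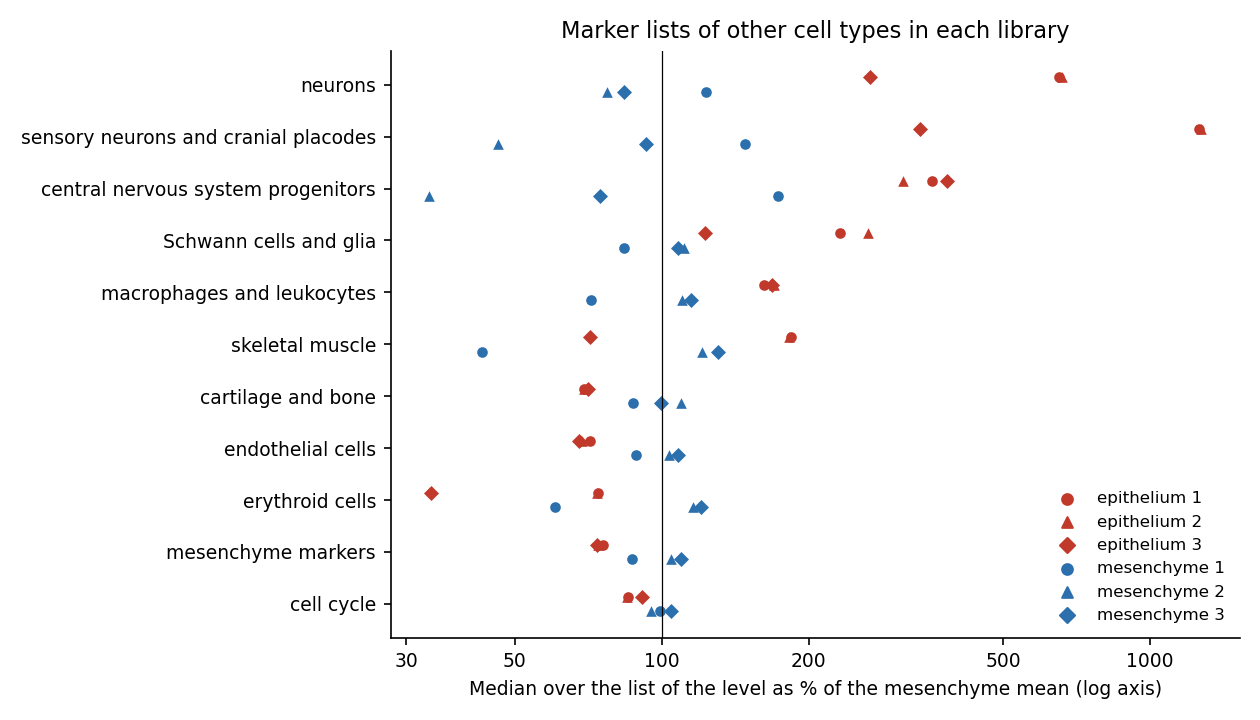
Level of marker lists in each library, as the median over members of the level in % of the mean of the 3 mesenchyme libraries (log axis). Red symbols are epithelium and blue symbols mesenchyme, with the replicate given by the shape. Neuron and sensory lists lie to the right in epithelium replicates 1 and 2, at 652 and 661% and at 1259 and 1272%, and lower in replicate 3. Mesenchyme and endothelial markers in epithelium lie between 67.8 and 75.8%.

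Vessel and blood markers leaned to the mesenchyme. Of 15 endothelial markers 4 were higher there (median -0.49), and the list stood at 71.3, 68.6 and 67.8% of the mesenchyme mean in epithelium. Pecam1, a junction protein of vessels, was at 6.25, 6.71 and 7.25 FPKM in epithelium and 9.19, 9.57 and 10.1 FPKM in mesenchyme (log2 fold change -0.46 with a standard error of 0.09, adjusted p = 0.0274), and Kdr, the VEGF receptor, at 3.49, 3.66 and 4.74 against 6.48, 6.44 and 6.31 FPKM. Of 12 erythroid markers 2 passed (median -0.66), the embryonic globin Hbb-bh1 at 616, 678 and 439.6 FPKM in epithelium against 813, 1029 and 991 FPKM in mesenchyme and the membrane protein Slc4a1 at 14.9, 13.6 and 9.39 against 18.5, 27.5 and 25.7 FPKM. The globin Hbb-y was at 2667, 2754 and 1163 FPKM in epithelium and 2077, 4222 and 4541 FPKM in mesenchyme, lowest in epithelium replicate 3 and mesenchyme replicate 1, and did not pass (adjusted p = 0.366, and 0.00231 with the library names as a block). Globin genes are near-identical copies in part, so their single values are uncertain. The endothelial count was 0 without epithelium replicates 1 or 2 or mesenchyme replicates 2 or 3, 2 without mesenchyme replicate 1, 10 without epithelium replicate 3, 9 with the library names as a block and 0 in the fit of all 12 libraries. The erythroid count was 0 without epithelium replicates 1 or 2 or mesenchyme replicates 2 or 3, 1 without mesenchyme replicate 1, 10 with the library names as a block and 0 in the fit of all 12 libraries. Among the genes named, the threshold was missed by Pecam1, Kdr and Hbb-bh1 without epithelium replicates 1 or 2 or mesenchyme replicates 1, 2 or 3 (adjusted p up to 0.123, 0.144 and 0.185, in that order) and Slc4a1 without epithelium replicates 1 or 2 or mesenchyme replicates 2 or 3 (adjusted p up to 0.145).

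Of 14 macrophage and leukocyte markers 5 were higher in epithelium (median 0.75). Csf1r, the growth factor receptor of macrophages, was at 2.31, 2.45 and 2.61 FPKM against 1.25, 1.45 and 1.49 FPKM (log2 fold change 0.87 with a standard error of 0.12, adjusted p = 0.00632), and the complement genes C1qa and C1qc had log2 fold changes of 1.48 and 1.38. The list stood at 162, 170.1 and 168% of the mesenchyme mean in epithelium, and its count was 1 without epithelium replicates 1 or 2 or mesenchyme replicates 1 or 3, 2 without mesenchyme replicate 2 and 0 in the fit of all 12 libraries. Of 13 skeletal muscle markers none passed in edgeR's test. By gene, 1 was higher in epithelium and 0 in mesenchyme at an unadjusted p under 0.05, DESeq2 called 1 and 0, and the epithelial count was 1 without epithelium replicate 3 and 7 with the library names as a block. Myog, the myogenic factor, was at 25.1, 25.7 and 7.11 FPKM in epithelium and 3.15, 13.7 and 13.6 FPKM in mesenchyme. The tissues overlapped, while epithelium was the higher library in each pair of names (adjusted p = 0.411, and 0.00109 with the library names as a block). Cartilage and bone markers had no passing member of 11 in edgeR's test (0 higher in epithelium and 2 in mesenchyme at an unadjusted p under 0.05, 0 and 0 in DESeq2, and for mesenchyme 2 with the library names as a block), with Col2a1 at 46.4, 44.9 and 58 and 39.3, 46 and 49.7 FPKM. Of 4 melanocyte markers 1 was higher in epithelium, Pmel (log2 fold change 2.40). The melanocyte count was 0 without epithelium replicates 1 or 2 or mesenchyme replicates 1, 2 or 3, 2 without epithelium replicate 3 and 2 in the fit of all 12 libraries. Of 6 pituitary and olfactory placode markers none passed in edgeR's test (0 and 0 at an unadjusted p under 0.05, 0 and 0 in DESeq2). Of 8 pharyngeal markers 3 were higher in epithelium. These were the thymus factor Foxn1, at no more than 0.217 FPKM, and Foxa1 and Ttr, which are also counted in other lists above. Removing single libraries ended the call of C1qa without epithelium replicates 1 or 2 or mesenchyme replicates 1 or 3 (adjusted p up to 0.149) and C1qc and Pmel without epithelium replicates 1 or 2 or mesenchyme replicates 1, 2 or 3 (adjusted p up to 0.172 and 0.115, in that order). The same held for Foxn1 without epithelium replicates 1 or 2 or mesenchyme replicates 1 or 2 (adjusted p up to 0.17).

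Hox genes, a list added after the values were seen, were read in the epithelium although the first arch is known for lacking them. Of 12 tested, 4 were higher in epithelium (median 2.64). Hoxa2, which specifies the second arch, stood at 13.6, 12.4 and 9.73 FPKM against 0.556, 1.47 and 1.11 FPKM (log2 fold change 3.57 with a standard error of 0.32, adjusted p = 0.000745), and Hoxb2 at 2.04, 1.5 and 1.07 against 0.276, 0.212 and 0.218 FPKM. The libraries of the tissues did not overlap in either. The list summed to 13.2 to 20.3 FPKM in the epithelium and 1.57 to 2.64 FPKM in the mesenchyme libraries, where 14 of 15 members lay under 0.5 FPKM, against 10 to 12 in epithelium. Its part in the comparison, whether from tissue behind the first arch or not, was not tested. The count was 7 without epithelium replicate 3 and 7 in the fit of all 12 libraries.

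Imprinted genes, likewise a list added after the values were seen, passed mostly on the mesenchymal side, 11 of 32 there and 1 in epithelium (median -0.44). The long non-coding RNA Meg3 was at 9.74, 9.77 and 10.2 FPKM in epithelium against 22.6, 24.5 and 24.2 FPKM in mesenchyme (log2 fold change -1.21 with a standard error of 0.07, adjusted p = 0.00012), and its neighbours on the same imprinted cluster Rian and Rtl1 changed by -0.83 and -1.52. Peg10, derived from a retrotransposon and needed for the placenta, was at 47.5, 46.7 and 48 against 111, 100.3 and 100.2 FPKM (log2 fold change -1.09 with a standard error of 0.10, adjusted p = 0.000752). Asb4 was at 20.1, 19.1 and 19 against 53.5, 46.4 and 51.8 FPKM, and Dlk1, a Notch-related ligand of progenitors, at 70.5, 67.9 and 37.1 against 125, 146 and 163 FPKM. Mesenchyme lay above epithelium in every library of these genes. Snrpn was the member higher in epithelium (0.63). The mesenchymal count was 17 without epithelium replicate 3 and 2 in the fit of all 12 libraries. For epithelium it was 0 without epithelium replicates 1 or 2 or mesenchyme replicates 1, 2 or 3 and 0 in the fit of all 12 libraries. With 1 library left out, the threshold was missed by Dlk1 without mesenchyme replicates 2 or 3 (adjusted p up to 0.067) and Snrpn without epithelium replicates 1 or 2 or mesenchyme replicates 1, 2 or 3 (adjusted p up to 0.185).

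Immediate early genes are induced within minutes by many stimuli. Of 14 immediate early and heat shock genes 7 were higher in epithelium (median 0.71). The count of that list was 0 in the fit of all 12 libraries. Egr1 was at 42.3, 43.6 and 48.5 FPKM against 20.9, 21.4 and 22.8 FPKM (log2 fold change 1.10 with a standard error of 0.09, adjusted p = 0.00041), and Fos at 39.5, 38.8 and 43.3 against 15.5, 18.8 and 22.2 FPKM (log2 fold change 1.17 with a standard error of 0.11, adjusted p = 0.00104). Both had all epithelium libraries above the mesenchyme, and none of the heat shock genes passed, with Hsph1 at an adjusted p of 0.352. Their part in other epithelial calls was not tested. Of 20 cell cycle genes none passed in edgeR's test (median -0.17), with 0 higher in epithelium and 5 in mesenchyme at an unadjusted p under 0.05. DESeq2 called 0 and 1, and the mesenchymal count was 4 without epithelium replicate 3 and 3 with the library names as a block. Pcna, the replication clamp, was at 139, 139.5 and 153 and 161, 141 and 148 FPKM.

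Several of the largest changes remain to be given. Gpr50, a receptor related to those of melatonin, was higher in mesenchyme at 3.47, 3.05 and 3.27 against 15.9, 12.2 and 13.1 FPKM (log2 fold change -2.03 with a standard error of 0.15, adjusted p = 0.000329). On the epithelial side, Sncg, a synuclein of sensory neurons, was at 30.6, 31.4 and 3.82 against 1.68, 1.33 and 1.31 FPKM, the bHLH factor Nhlh1 at 6.49, 7.19 and 1.94 against 0.239, 0 and 0 FPKM and the thyroid and palate factor Foxe1 at 7.39, 7.37 and 4.91 against 0.251, 0.269 and 0.413 FPKM. Among the epithelium libraries, Sncg and Nhlh1 were lowest in replicate 3, like the other neuron genes named. The call was lost for Sncg without epithelium replicates 1 or 2 or mesenchyme replicates 1, 2 or 3 (adjusted p up to 0.102) and Nhlh1 without epithelium replicates 1 or 2 or mesenchyme replicates 2 or 3 (adjusted p up to 0.1004).

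The tissue difference was set against that at E13.5, where tooth germs and not mandibles were dissected, so stage and dissected piece cannot be told apart. In an interaction over all 12 libraries, 45 of 22110 genes (0.204%) had a tissue difference that changed between the stages, 32 of the 736 genes called higher in epithelium at E11.5 and 2 of the 99 called higher in mesenchyme. The called genes had been chosen on the same E11.5 libraries, so these shares are a description. The count of 45 was 3096 without E13.5 epithelium replicate 3, 110 without E11.5 epithelium replicate 3 and 16 to 67 without any other single library. Nell2, a secreted protein of neurons, was picked for its change. Its E11.5 libraries held 7.14, 7.27 and 6.98 FPKM in epithelium and 1.56, 1.63 and 1.52 FPKM in mesenchyme, and its E13.5 libraries held 7.44, 7.83 and 6.18 and 6.88, 6.49 and 6.66 FPKM in the same order (adjusted p of the change = 0.000186). Gdnf, epithelial at E11.5, later stood at 0.316, 0.271 and 0.756 FPKM in epithelium and 0.787, 1.39 and 1.16 FPKM in mesenchyme (adjusted p of the change = 0.0213). Fabp7 in the E13.5 libraries was at 4.15, 1.94 and 4.83 FPKM in epithelium and 4.69, 4.55 and 8.37 FPKM in mesenchyme, below its E11.5 epithelium level in every library (adjusted p of the change = 0.0316). Shh, by contrast, had a log2 fold change of 3.80 at E13.5 and 3.80 at E11.5, and Lhx6 of -1.74 and -2.05.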

How the data were processed

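RNA-seq of dental epithelium and mesenchyme at E11.5 was taken from 6 of 12 libraries. The authors deposited estimated counts and FPKM per gene. The submitters' processing notes list Cutadapt 1.9, HISAT2 2.0.4, StringTie 1.3.4d, edgeR and mm10. The deposited counts derive from assembled coverage, and their small values stepped by about 4 per read pair, so the depth in read pairs is lower than the totals and a floor of 12 counts per library was used for genes at 0. FPKM, as deposited, are the levels printed, with SD over libraries.

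From the counts, edgeR 4.0.16 in R 4.3.3 fitted the 6 E11.5 libraries (low-count filter, TMM scaling, quasi-likelihood test, Benjamini-Hochberg adjustment over 20063 genes). Called genes had an adjusted p under 0.05 and a change of at least 2-fold. The difference between stages was an interaction over all 12 libraries. DESeq2 1.42.0, limma 3.58.1 on log2(FPKM + 0.5), other filters and scalings, blocks and single libraries left out served as alternatives. Numbers in the library names were used to pair the samples. The correlations of deviations were 0.322 (epithelium replicate 3 with mesenchyme replicate 1), 0.134 (2 with 2) and 0.202 (1 with 3) over 14346 genes, all above 0.1. Epithelium 1 with mesenchyme 2 and epithelium 2 with mesenchyme 3 correlated at 0.205 and 0.168, so the data tell the libraries without a number from the others but not the remaining pairs from each other. Epithelium replicates 1 and 2 had a chi-square per degree of freedom of 5.09 on counts divided by 3, above sampling noise, and were kept as separate libraries. The other replicate pairs were at 27.14 to 86.9 on the same divided counts.

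The text names 5 given markers, Krt14 and Vim, per direction the 12 called genes of largest fold with at least 5 FPKM in the higher tissue, no overlap and an established symbol, from each list up to 6 passing and up to 3 other genes of highest level, and the genes of 30 ligand and receptor pairs; others are said to be chosen after their values were seen. Members and lists were chosen with earlier results of these data known. Promoter windows and motifs are from RefSeq (GRCm38.p6), matched by symbol. Some genes that this rule names, and 1 pair in the plot of pairs, are not reported here.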

Additional observations from a re-analysis of the deposited data

Results flagged for a closer look

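For 4 of the genes named above, the difference between epithelium and mesenchyme itself differed between E11.5 and E13.5 in the edgeR interaction over all 12 libraries. Values here are the tissue difference at E11.5 minus that at E13.5 on the log2 scale. Nell2 had 2.09, standard error 0.16, adjusted p = 0.000186. In Clic6 the value was 2.87, standard error 0.33, adjusted p = 0.00567, with 1.06, 0.733 and 1.06 FPKM in epithelium and 2.14, 2.04 and 1.42 FPKM in mesenchyme at E13.5. Gdnf had 3.82, standard error 0.57, adjusted p = 0.0213, and at E13.5 its lowest mesenchyme library lay above its highest epithelium library. For Fabp7 it was 4.04, standard error 0.64, adjusted p = 0.0316. Within E13.5 alone, the tissue difference passed edgeR's test in none of the 4. The adjusted p there was 0.592 for Nell2, 0.12 for Clic6, 0.166 for Gdnf and 0.345 for Fabp7. The younger tissue came from mandibles and the older from tooth germs, so stage and dissected piece cannot be told apart in any of the 4.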

How the results depend on the processing

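The excess of genes called higher in epithelium over genes called higher in mesenchyme was kept under every alternative, while the counts themselves moved. Leaving out single libraries gave 447 to 1062 called genes for epithelium and 46 to 262 for mesenchyme, against 736 and 99, with the highest counts without epithelium replicate 3. Limma on log2(FPKM + 0.5) called 369 and 58, limma with a pseudocount of 0.1 called 444 and 96, and limma without a filter on low values called 317 and 40. DESeq2 called 1056 and 185, and the library naming as a covariate gave 1034 and 180. All 12 libraries in 1 fit gave 668 and 41, and epithelium replicates 1 and 2 added together gave 484 and 54. Without the low-count filter 521 and 67 were called. Leaving out both libraries without a number, an alternative chosen after seeing the data, gave 1361 and 349. The cause of these shifts was not tested. Scaling by DESeq2 size factors and counts divided by 3 stayed within 1.5-fold.

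With the replicate block by library name, 814 genes were called for epithelium and 127 for mesenchyme. It ended the call of 3 of the 131 named genes that had passed and brought 7 others past the threshold, as given beside them, and it changed no other call of a named gene. The biological replicate numbers of the labels did not pair the samples, with correlations of -0.29, 0.134 and -0.236 between same-numbered libraries. As a replicate block they gave 490 and 52 calls. Under neither numbering did every library correlate best with its own number.

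The 45 genes with a changed tissue difference became 26 without the low-count filter, 8 with a replicate block within stage and 969 in DESeq2, and leaving out single libraries gave 16 to 3096, the highest without E13.5 epithelium replicate 3.

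Of the 131 named genes that passed, 52 did so under every alternative, 46 higher in epithelium and 6 in mesenchyme, and none changed direction. Losses ranged from 0 with DESeq2 size factors to 54 without mesenchyme replicate 2. Changes of sign occurred in 10 named genes near 0 that had not passed. Leaving out single libraries gave log2 fold changes of -0.15 to 0.33 for Bmpr1b, -0.49 to 0.12 for Fgf18, -0.16 to 0.12 for Id1, -0.070 to 0.092 for Pcna, -0.063 to 0.47 for Ptch1, -0.070 to 0.21 for Sfrp1, -0.074 to 0.15 for Sfrp2 and -0.017 to 0.030 for Smo. Without both libraries that lack a number the values were -0.050 for Bmpr1b, -0.021 for Fstl1, 0.20 for Id1, 0.038 for Pcna, -0.016 for Sfrp1 and -0.011 for Smo. With epithelium replicates 1 and 2 added together Pcna was at 0.020 and Sfrp2 at -0.032. The limma fits gave -0.0099, -0.010 and -0.0099 for Col4a2, -0.032, -0.033 and -0.032 for Sfrp2 and -0.047, -0.048 and -0.047 for Smo, which had -0.017 in DESeq2 and -0.012 with its size factors.

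Limits of the data are the 3 libraries per tissue, the number of embryos in each, which is not given, and deposited counts that derive from read coverage. Small values stepped by about 4 counts, so counts overstate the read pairs behind low genes, and a difference of genes under about 12 counts in a library is not resolved at this depth.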
